A study of Mus musculus with 12 samples.

Results

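The response of Tcf3 knockout mouse embryonic stem cells to the ligand Wnt3a was taken as the difference between 3 arrays of Tcf3-/- cells given recombinant Wnt3a and 3 arrays of Tcf3-/- cells in control medium. These are 6 of the 12 arrays of the series, and the other 6 hold Tcf3+/+ (wild-type) cells in the same media. All groups grew on gelatin, feeder-free, in a medium of serum and Lif, and the Wnt3a groups received 50 ng/ml Wnt3a for 24 hours before RNA isolation. The labels name no cell line and no clone, and they do not say whether replicates were separate cultures, so the p-values rest on array-to-array spread that may be technical only. Tcf3 is the older name of Tcf7l1, not the E2A gene to which the symbol Tcf3 now belongs. Every probe set with a single gene symbol was a member. There were 34945 of them among 45101 probe sets on the array, 24503 lay above a floor described below, and they covered 13814 genes.

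Wnt ligands bind Frizzled receptors and Lrp co-receptors, which stops the Axin, Apc and Gsk3 complex from marking beta-catenin for destruction. Beta-catenin then enters the nucleus and binds the Tcf/Lef proteins, which sit on DNA. In mouse embryonic stem cells Tcf7l1 acts mainly as a repressor, and it occupies many genes of the naive pluripotency network. The comparison asks how cells that lack this repressor answer the ligand.

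The targeted gene was read first. On its brighter probe set the log2 intensity of Tcf7l1 was 10.77, 10.90 and 10.87 on the wild-type control arrays and 9.58, 9.37 and 9.45 on the knockout control arrays. A second probe set gave 10.74, 10.82 and 10.84 against 9.19, 8.87 and 9.05. The knockout arrays were lower on both without overlap, and signal remained above the floor. Where these probe sets lie relative to the deleted part was not found in the labels, so they check the labels only in direction.

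The deposited intensities were linear and were put on the log2 scale here, so that a difference of 1 is a doubling. The floor was the 40th percentile of all values, a log2 intensity of 5.56 (47.2 before the logarithm). A probe set was kept if 3 of the 12 arrays exceeded it. A fold against a group whose mean lay below it is a bound, written as at least N-fold. Median intensity was 71.7 to 72.8 on the knockout control arrays and 68.4 to 70.4 on the knockout Wnt3a arrays, and arrays of a group correlated with each other at 0.9925 or more over probe sets. None of the 9 stem cell markers fell below the floor in either medium. Of 8 feeder or fibroblast markers, Col1a1, Col3a1 and Lum lay below it on average, and of 6 blood markers Ptprc, Tal1 and Hbb-bh1 did. Some marker levels moved with the medium. The summed stem cell markers read 16.59 to 16.63 in control and 16.66 to 16.74 in Wnt3a medium. Of these 9 markers 2 were called higher and 1 lower, beside 13.4% and 14.9% of all genes. The summed feeder markers read 9.09 to 9.17 in control and 8.87 to 8.94 in Wnt3a medium with no single call, and the summed blood markers 8.92 to 8.93 and 8.61 to 8.86 with 2 of 6 called lower. Of 5 neural markers 2 were called lower, with overlapping sums (9.956 to 10.119 and 9.569 to 9.963). Over all genes 14.9% were called lower. The part of these markers in the results was not tested. The knockout control arrays differed widely in endoderm genes, as described below.

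The array control sequences differed between the media. Of the 9 control sequences added during labelling and hybridisation, 8 were brighter on the knockout Wnt3a arrays, and trp stayed below the floor. The dap control had log2 intensities of 4.19, 4.31 and 4.32 in control medium and 10.85, 10.89 and 10.89 in Wnt3a medium. The thr control had means of 4.93 and 8.94, and the 4 hybridisation controls bioB, bioC, bioD and cre were higher by 1.89 to 2.50. The 18S rRNA probe sets read 9.36, 9.36 and 9.03 against 10.27, 9.51 and 10.17, also without overlap. The 3′ minus 5′ log2 difference of Gapdh, a sign of RNA quality, was lower without overlap, with means of 0.02 and −0.06, while those of actin and Tfrc overlapped. The part of these values in the gene results was not tested. The dots of the control sequences show the groups apart for each of these. Medium and array preparation cannot be told apart in any value that follows, and the probe sets of a gene were compared with each other throughout.

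**Figure D1:**
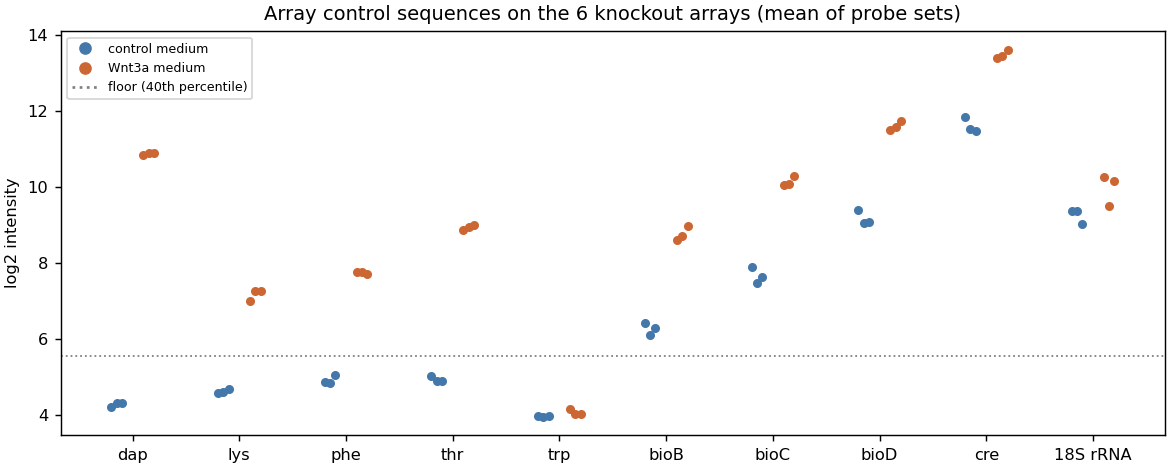
Log2 intensity (vertical axis) of the array control sequences on the 6 knockout arrays, each dot the mean of a sequence's probe sets on 1 array, blue for control medium and orange for Wnt3a medium. The dap dots sit between 4.19 and 4.32 in control medium and between 10.85 and 10.89 in Wnt3a medium, and trp stays below the dotted floor on all 6 arrays.

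A gene was represented by its brightest probe set, and it is called higher or lower where limma's adjusted p was under 0.05. Over all probe sets tested 30.9% were called in either direction, and 31.2% of those with a single symbol. In Wnt3a medium 1848 genes were higher (13.4% of those tested) and 2054 were lower (14.9%). Most of these differences were small. The median called change was 0.34 for genes that rose and −0.39 for genes that fell, while 39 genes rose and 66 fell by at least 2-fold, 0.282% and 0.478% of genes (0.76% together). Without knockout control array 3 the counts were 1164 and 1304. With each array centred on its median they were 2646 and 1365, so that 66% of called genes were higher against 47.4% as deposited. The arrays of the media did not overlap for 43.8% of genes.

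Probe sets of a gene often did not give the same answer. Of 6245 genes with at least 2 kept probe sets, 1466 had 2 or more called ones. All were higher in 577 of these genes and all were lower in 466. In the other 423 genes, 28.9% of the 1466, called probe sets pointed both ways. Among 1895 such genes whose brightest probe set was called, a second probe set was called the same way in 807, or 42.6%. All kept probe sets were called in 1 direction in 442 genes, which is 7.08% of those with at least 2 (3.65% higher and 3.43% lower). Without knockout control array 3 the genes called all higher, all lower and both ways were 341, 286 and 210. Without knockout Wnt3a array 2 those called all higher were 375 and those called both ways 232, and without knockout control array 1 those called all lower were 286 and those called both ways 267.

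The largest rise of a gene was that of Nkx1-2, a homeobox gene of the caudal embryo and its neuromesodermal progenitors. Its log2 intensities were 4.93, 5.08 and 5.09 in control medium and 8.12, 8.32 and 8.33 in Wnt3a medium, at least 6.47-fold higher (log2 change 3.22 ± 0.13, limma's SE, adjusted p = 7.03e-08). The control arrays were all below the floor and the Wnt3a arrays far above it. The other probe sets of the gene, both near the floor, rose by 0.47 and 0.54. Nkx1-2 rose in wild-type cells too, from a mean of 5.27 to 7.70. The control means of both genotypes lay below the floor, so each rise has only a lower bound and the sizes were not compared. Nkx1-2 was 1 of 2 called genes among 19 of primitive streak and mesoderm. The list had 1 higher and 1 lower, beside 13.4% and 14.9% of all genes. Snai1, a repressor of epithelial genes, fell by 0.61, and Eomes, a T-box factor of the streak, gave 0.31 (adjusted p = 0.293).

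Cdx1, a caudal homeobox gene and known direct target of Wnt signalling, was another of the large rises. It went from 7.49, 7.23 and 7.43 to 9.51, 9.34 and 9.22, a 3.92-fold rise (1.97 ± 0.24, adjusted p = 0.000141). Its paralogue Cdx2 gave −0.20 (adjusted p = 0.39) and overlapping arrays. Sp5, a zinc finger factor that beta-catenin and Tcf/Lef proteins induce directly, read 8.26, 8.204 and 8.62 against 10.01, 9.92 and 9.90. That is a rise of 1.58 ± 0.26 (adjusted p = 0.000913), with the arrays well apart. Gad1, whose enzyme makes the transmitter GABA, read 5.95, 6.05 and 6.16 against 7.41, 7.87 and 8.15 (1.75 ± 0.22, adjusted p = 0.000193). Its second probe set rose by 0.63.

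Sp5 and Gad1 are neighbours on mouse chromosome 2, and their printed windows start 87206 bases apart. Erich2, between them, was not tested, and Gorasp2, the next tested gene after Gad1, gave no call (−0.005, adjusted p = 0.959). The 250 bases before the RefSeq start (GRCm38.p6) are shown for Sp5, Gad1 and Nkx1-2, because Tcf/Lef proteins bind the core CTTTGA or CTTTGT. These genes were picked by hand, and Cdx1, Pglyrp1 and Btla, which rose by more than Sp5 and Gad1, are not shown. For Gad1 the table's start lies inside the gene record, which begins at 70561303, so its window precedes one of several transcript starts and not the outermost. The capitals mark each match on either strand. The Sp5 window is chr2:70474673-70474922 on the + strand, the Gad1 window chr2:70561879-70562128 on the + strand and the Nkx1-2 window chr7:132599638-132599887 on the − strand, written along the gene.
Sp5: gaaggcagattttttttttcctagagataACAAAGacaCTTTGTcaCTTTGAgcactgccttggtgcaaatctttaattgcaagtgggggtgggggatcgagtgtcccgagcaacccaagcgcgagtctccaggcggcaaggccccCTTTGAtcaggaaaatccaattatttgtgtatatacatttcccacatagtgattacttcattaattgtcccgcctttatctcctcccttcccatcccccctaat
Gad1: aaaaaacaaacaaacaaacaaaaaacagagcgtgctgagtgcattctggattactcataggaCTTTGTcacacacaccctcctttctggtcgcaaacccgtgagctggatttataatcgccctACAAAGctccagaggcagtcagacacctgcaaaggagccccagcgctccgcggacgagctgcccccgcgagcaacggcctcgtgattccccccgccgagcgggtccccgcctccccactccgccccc
Nkx1-2: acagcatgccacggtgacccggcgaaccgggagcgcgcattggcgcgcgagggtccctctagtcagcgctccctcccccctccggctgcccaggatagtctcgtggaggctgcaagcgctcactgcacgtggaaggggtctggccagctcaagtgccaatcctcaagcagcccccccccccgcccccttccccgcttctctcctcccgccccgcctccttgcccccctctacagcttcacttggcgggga

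The Sp5 window held 4 matches, CTTTGA at −204 and −104 from the start and CTTTGT at −212 and, on the opposite strand, at −221. The Gad1 window held CTTTGT at −188 and, on the opposite strand, at −127. The Nkx1-2 window held neither core. Such short cores are common. Among 32851 promoter windows of this length 13.8% held CTTTGA and 16.5% CTTTGT. Of the 44 windows of genes called at least 2-fold higher (33 of the 39 genes were in the table) 11.4% held CTTTGA and 27.3% CTTTGT. Of the 59 windows of genes called at least 2-fold lower (46 of 66 genes), 6.78% and 16.9% did. A match is a run of letters and not a shown binding site.

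Of the 32 tested feedback and target genes of the pathway, a list chosen with earlier results known, 6 rose, 6 fell and 20 were not called, beside 13.4% of all genes higher and 14.9% lower, with a median change of 0.01 beside −0.01 over all genes. Axin2, the negative feedback scaffold, read 8.81, 8.59 and 8.94 against 9.13, 9.29 and 9.16. Its arrays did not overlap, but the change of 0.41 ± 0.15 did not pass (adjusted p = 0.0594). It passed in 5 of the alternatives, for example with only the knockout arrays in the fit (adjusted p = 0.0208), and its second probe set gave 0.17. Lef1, a Tcf/Lef activator and itself a target, read 8.50, 8.66 and 9.28 against 9.10, 9.20 and 9.03 (0.29, adjusted p = 0.163). Knockout control array 3 is the high one. Without it the change was 0.53 (adjusted p = 0.00177), and the second Lef1 probe set rose by 0.75.

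Nkd1, an inhibitor of Dishevelled, rose by 0.37 ± 0.06, and Lgr5, a receptor of R-spondins, rose by 0.42. Other feedback and target genes fell. Znrf3, the ligase that removes Frizzled from the surface, went from 7.68, 7.59 and 7.63 to 6.87, 7.32 and 7.29 (−0.47 ± 0.12, adjusted p = 0.00956), with both probe sets lower. Notum, a secreted enzyme that inactivates Wnt ligands, fell by 0.68. Ccnd1, a G1 cyclin, fell on all 3 probe sets, by 0.49 on the brightest. Myc fell by 0.51, with 10.67, 10.31 and 10.71 against 10.12, 10.14 and 9.90, and Id2, an inhibitor of helix-loop-helix factors, fell by 0.71 on 1 of its 3 probe sets.

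The receptors and secreted inhibitors held 7 genes that fell and 3 that rose among 23, beside 14.9% and 13.4% of all genes. The median was −0.12. With median centring 4 fell and 4 rose, and 4 fell and 1 rose without knockout control array 1, knockout Wnt3a array 2 or knockout Wnt3a array 3. Fzd7, a Frizzled receptor prominent in pluripotent cells, read 10.44, 10.35 and 10.22 against 9.42, 9.55 and 9.62 (−0.81 ± 0.08, adjusted p = 3.72e-05). Its arrays are a clear step apart, but 1 of its 2 probe sets passed. Fzd8 fell by 0.54, Lgr4 by 0.56 and the secreted inhibitor Sfrp1 by 0.59. The co-receptors differed in sign: Lrp5 fell by 0.54, on arrays at the floor, and Lrp6 rose by 0.34.

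Of 17 genes for ligands and their secretion 2 rose and 2 fell, near the 13.4% and 14.9% of all genes, all of them close to the floor. Wnt5b rose by 0.34 on its brightest probe set, with both higher, and Wnt9a by 0.60, while Wnt10a fell by 0.35 and Wnt10b by 0.33. Each of these calls was lost without some of the knockout arrays.

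Inside the cell, 4 of 26 transduction genes rose and 4 fell, near the 13.4% and 14.9% of all genes. The median was −0.02, which turned to 0.05 with median centring and to 0.03 without knockout Wnt3a array 1. Without 1 array at a time 1 to 4 rose and 2 to 5 fell, with 1 rise and 2 falls without knockout Wnt3a array 2, 2 and 2 without knockout control array 3 or knockout Wnt3a array 3, and 1 rise without knockout control array 2. The beta-catenin gene Ctnnb1 read 13.87, 13.85 and 13.83 against 13.85, 13.87 and 13.91 (0.03 ± 0.05, adjusted p = 0.756). Gsk3b rose by 0.21, and the beta-catenin partners Bcl9 and Bcl9l fell by 0.32 and 0.33. In 4 genes of this list the called probe sets pointed both ways. Csnk1e rose by 0.33 on its brightest probe set and was lower on both others.

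Of the 11 tested Tcf/Lef factors and Groucho corepressors 3 fell and 1 rose, beside 14.9% and 13.4% of all genes. With median centring, without knockout Wnt3a array 2 or without knockout Wnt3a array 3, 2 fell, and 1 fell without knockout control array 1. Tcf7l1 itself, still read in the knockout cells, went from 9.58, 9.37 and 9.45 to 9.19, 9.22 and 8.89 (−0.37 ± 0.10, adjusted p = 0.0179), and its second probe set fell by 0.52. The first call was lost without knockout control array 1 (adjusted p = 0.0688) or knockout Wnt3a array 3 (0.067). The corepressors Tle4 and Tle1 fell by 0.36 and 0.25, and Tle5, a short member of the same family, rose by 0.41. Tcf7l2 gave −0.36 (adjusted p = 0.279), with array values on both sides of the floor. Tcf7, T and Rnf43 were not tested here.

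The naive pluripotency genes hold the self-renewal network of these cells. In knockout cells 5 of the 30 tested rose and 4 fell, near the 13.4% and 14.9% of all genes. The median change was 0.06, and it was −0.003 after repeated quantile normalization. In wild-type cells 21 rose and 1 fell, with a median of 0.72, beside 18.7% of all genes higher. The difference between the responses passed for 16 of the 30, each time with the knockout value lower, beside 1.66% of all genes in that direction. Without 1 array at a time 9 to 20 of the 30 passed, none of them with the knockout value higher; the count was 9 without wild-type control array 1 or knockout control array 1, and 10 without wild-type control array 3, wild-type Wnt3a array 2 or knockout Wnt3a array 2. The plot of knockout against wild-type change shows most of them below the diagonal, with knockout changes on both sides of 0.

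**Figure D2:**
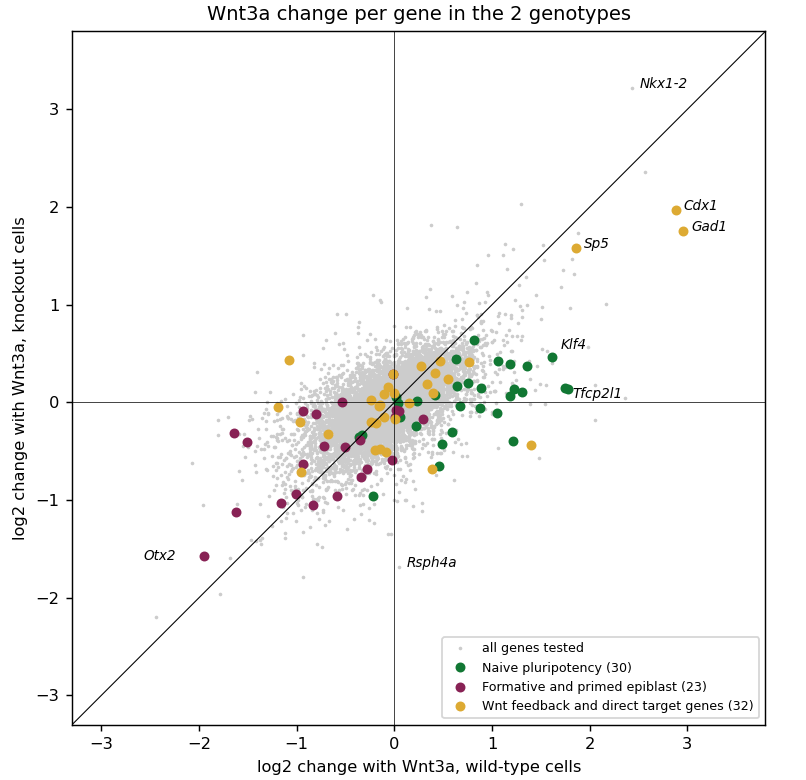
Log2 change with Wnt3a in knockout cells (vertical axis) against that in wild-type cells (horizontal axis) for 13814 genes in grey, with 30 naive pluripotency genes in green, 23 formative and primed genes in purple and 32 Wnt feedback and target genes in yellow; the diagonal marks equal change. The green points lie mostly right of 0 and below the diagonal, with Tfcp2l1 at 1.75 in wild-type and 0.15 in knockout cells, while Otx2 lies low in both.

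Tfcp2l1, a factor downstream of Lif and of Wnt in stem cells, read 12.14, 12.002 and 12.10 in knockout control medium and 12.15, 12.32 and 12.21 with Wnt3a. The change of 0.15 did not pass (adjusted p = 0.36), against 1.75 in wild-type cells, and the difference was −1.60. Esrrb, an orphan nuclear receptor, read 12.08, 12.002 and 12.02 against 12.12, 12.13 and 12.16, with 0.10 in knockout and 1.31 in wild-type cells. None of its 3 probe sets passed in the knockout and all did in wild type. Tbx3, a T-box factor, read 11.02, 10.81 and 10.69 against 10.79, 11.03 and 11.09 (0.13 against 1.77).

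Nanog gave 0.15 (adjusted p = 0.148) against 0.89, and the difference of −0.74 passed. Klf4, which rose in both, did so by 0.47 in knockout and 1.62 in wild-type cells, and the difference passed as well. Klf2 fell in the knockout, from 13.05, 12.79 and 12.96 to 12.59, 12.46 and 12.47 (−0.42 ± 0.07, adjusted p = 0.00152), and rose by 0.49 in wild-type cells. Dppa3, a maternal factor that protects DNA methylation, likewise fell by 0.65 and rose by 0.46. Zfp57, which guards imprinted regions, fell by 0.96 in knockout cells, with 10.47, 10.34 and 10.35 against 9.47, 9.45 and 9.35. Prdm14, a repressor of differentiation, gave −0.39 (adjusted p = 0.106) against a rise of 1.22.

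Some naive genes did rise in the knockout. Socs3, the feedback inhibitor of Lif signalling, rose on all 3 probe sets, from 11.95, 11.99 and 11.80 to 12.43, 12.54 and 12.71 (0.64 ± 0.09, adjusted p = 0.000241). Klf5 rose by 0.45 and Gbx2 by 0.43. In the Lif and Stat3 list 4 of 19 genes rose and 2 fell, beside 13.4% and 14.9% of all genes. The kinase gene Jak1 rose by 0.55, while Junb fell by 0.99. Sox2 rose by 0.33, a call lost without knockout control array 3, and Pou5f1 gave 0.15 (adjusted p = 0.164).

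Formative and primed epiblast genes mark cells leaving the naive state. Of 23 tested genes 13 fell, beside 14.9% of all genes, and none rose by limma, beside 13.4%. The median change was −0.45. None rose at an unadjusted p under 0.05 either, a level met by 11929 of all 28483 probe sets in either direction. Under the other settings 10 to 14 fell, and at most 1 rose. Otx2, a homeobox factor that opens the formative state, read 8.31, 7.88 and 8.35 against 6.25, 6.72 and 6.86 (−1.57 ± 0.32, adjusted p = 0.00372). Pou3f1, a POU factor of the same state, went from 7.41, 7.10 and 7.61 to 6.08, 6.31 and 6.38. That fall of 1.12 was lost without knockout control array 3 (adjusted p = 0.0588).

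Fgf15 fell by 1.05, Cldn6 by 1.03, the adhesion gene Cdh2 by 0.96, Sox3 by 0.94 and the de novo methyltransferase gene Dnmt3b by 0.46. Dnmt3b passed on 1 of 2 probe sets. The median of this list was −0.59 in wild-type cells, and the difference between the genotypes passed for 3 of the 23, each with the knockout value higher, beside 2.01% of all genes in that direction. Without wild-type control array 3 or wild-type Wnt3a array 2 that count was 1, and 1 gene had the knockout value lower without wild-type control array 2 or wild-type Wnt3a array 1. One of the 3 was Sall2, with −0.41 in knockout (adjusted p = 0.0506) and −1.51 in wild-type cells.

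Of 28 tested genes of the FGF and ERK pathway 11 fell and 1 rose, beside 14.9% and 13.4% of all genes. The median was −0.25, and 1 of the falls had a second probe set called lower. Fgf5 and Fgf15 are also in the formative list, so the lists are not independent. With median centring, and without knockout control array 1 or 3, 7 fell. Dusp6, a phosphatase that switches ERK off, read 10.78, 10.70 and 10.84 against 10.17, 10.21 and 10.17 (−0.59 ± 0.09, adjusted p = 0.000847). Dusp5 fell by 0.60 and Egr1 by 0.56, and Spry2, an inhibitor of the same pathway, rose by 0.44. Of 24 immediate-early genes 10 fell and 1 rose, beside 14.9% and 13.4% of all genes. With median centring 7 fell and 1 rose. None of the 10 had a second probe set called lower. Egr1, Fos, Fosl1, Ier3, Dusp1 and Myc are also in the FGF and ERK list. Junb, an AP-1 subunit, read 9.02, 8.79 and 8.86 against 7.60, 7.82 and 8.27, and Zfp36, which destabilises short-lived mRNAs, fell by 0.93. Fos fell by 0.51. Klf6 was the exception with a rise of 0.70, on 1 of 4 probe sets, and its plain probe sets alone gave −0.18.

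Of 27 tested epithelial genes 8 fell, beside 14.9% of all genes, 1 rose, beside 13.4%, and 18 were not called. The median was −0.26, beside −0.56 in wild-type cells. Cldn6, Grhl2 and Krt18 are also in the formative list. Esrp1, an epithelial splicing regulator, read 9.02, 8.72 and 9.39 against 7.24, 7.14 and 7.38 (−1.79 ± 0.21, adjusted p = 0.000118). Cldn4, a tight junction gene, fell by 1.14, the junction gene Jup by 0.69 and Epcam by 0.59. Grhl2, a driver of epithelial genes, fell by 0.76 on its brightest probe set, with 2 of 4 lower. Krt8 gave −0.41 (adjusted p = 0.12).

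Actin and Srf-linked genes had a median of −0.01, or 0.05 with median centring. Of 30 tested 4 rose, near the 13.4% of all genes. None fell by limma, beside 14.9% of all genes. At an unadjusted p under 0.05, 1 was lower, beside 11929 of all 28483 probe sets in either direction. A single gene rose without knockout control array 3, knockout Wnt3a array 2 or knockout Wnt3a array 3. Zyx, a focal adhesion protein, read 7.99, 8.04 and 8.02 against 9.03, 8.91 and 8.83, a rise of 0.91 in the knockout against a fall of 0.50 in wild-type cells (difference 1.41). Its second probe set fell, by 0.29 in the knockout. Csrp1 rose by 0.64 and 0.53 on its probe sets in the knockout and fell by 0.70 on the brightest in wild-type cells.

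**Figure D3:**
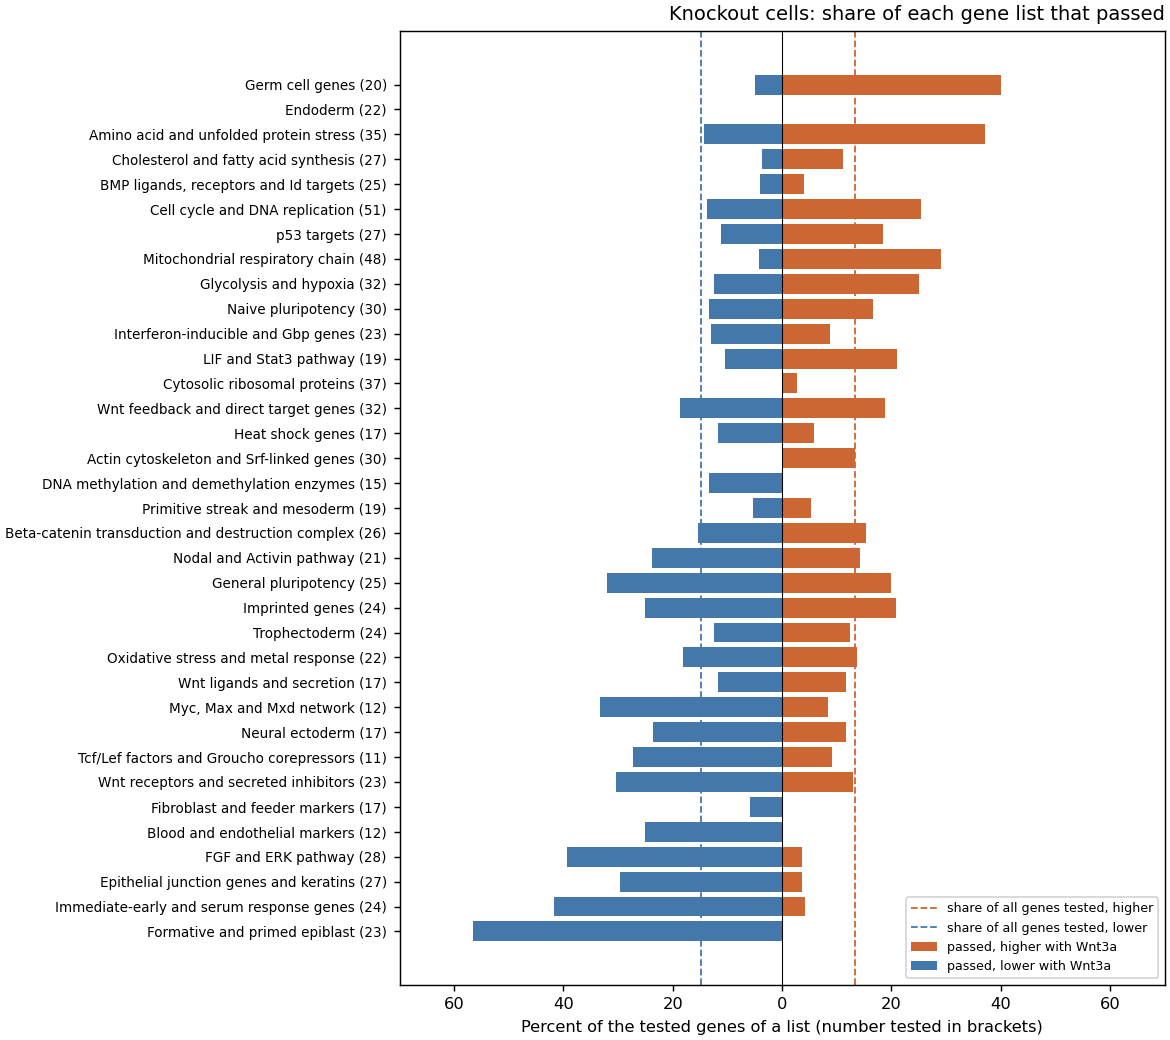
Percent of the tested genes of each list (number tested in brackets) that were called higher (orange, to the right) or lower (blue, to the left) with Wnt3a medium in knockout cells, lists ordered by median change; the dashed lines mark 13.4% and 14.9% of all genes, and the 2-cell-like list with 7 tested genes is not drawn. The longest blue bar is that of formative and primed genes, 13 of 23, and the longest orange bar that of germ cell genes, 8 of 20.

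Germ cell genes were the list with the highest median. Of 20 tested 8 rose and 1 fell, beside 13.4% and 14.9% of all genes, with a median of 0.36. Under the other settings 6 to 11 rose. Dazl, an RNA-binding protein of the germ line, read 9.17, 8.83 and 8.80 against 9.75, 9.78 and 9.99 (0.91 ± 0.16, adjusted p = 0.00142), with both probe sets higher. Mov10l1 and Mael, which act in the piRNA pathway, rose by 0.72 and 0.70, and Piwil2 by 0.63. Prdm1, an early germ cell determinant, fell by 0.81. The median was 0.42 in wild-type cells, and 1 of the 20 differed between genotypes.

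Genes of amino acid and unfolded protein stress formed a list of 35 tested, where 13 rose and 5 fell (15 and 2 with median centring). As deposited, 13.4% of all genes rose and 14.9% fell. Without 1 array at a time 9 to 13 rose and 2 to 6 fell, with 3 or fewer falls without any 1 of the knockout control arrays or without knockout Wnt3a array 1 or 2. Nupr1, a stress-induced chromatin protein, read 7.93, 8.75 and 7.99 against 9.62, 9.73 and 9.69 (1.45 ± 0.19, adjusted p = 0.000219), and its second probe set rose too. Atf4, the factor that drives this programme, rose by 0.52, asparagine synthetase Asns by 0.61 and the cysteinyl tRNA synthetase gene Cars by 0.64. On the mean of all its probe sets Cars did not pass (0.14). Among the genes that fell were Pdia4 by 0.88, Dnajb9 by 0.41, Xbp1 by 0.35 and Calr by 0.20. Sesn2, which is induced by Atf4 and p53, rose by 0.52 in knockout and by 1.08 in wild-type cells.

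Endoderm genes differed widely between the knockout control arrays, and array 2 was the highest for each gene printed here. None of the 22 tested was called by limma, beside 13.4% of all genes higher and 14.9% lower. At an unadjusted p under 0.05, 3 were higher, beside 11929 of all 28483 probe sets in either direction. The median was 0.15. Without knockout control array 2, 12 rose. Leaving out the highest control array lowers the control mean of such a gene. Sox17, an endoderm factor, read 5.48, 8.31 and 6.78 in control medium and 7.53, 7.53 and 7.45 with Wnt3a. Dab2 read 7.18, 10.25 and 8.67 against 8.98, 9.29 and 9.35. Lama1, a laminin chain of parietal endoderm, read 8.41, 10.23 and 8.88 against 9.88, 10.04 and 10.17 (0.86, adjusted p = 0.0911), and without array 2 it rose by 1.38 (adjusted p = 0.00188). The summed level of the 8 endoderm markers ran from 9.32 to 11.24 on the log2 scale over control arrays and from 10.35 to 10.52 over Wnt3a arrays. In such bulk RNA a larger number of cells of a type and more RNA per cell cannot be told apart.

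The largest fall named by the selection rule was that of Max, the obligate partner of Myc, which read 9.91, 9.69 and 10.26 against 7.87, 8.04 and 8.06 (−1.96 ± 0.16, adjusted p = 1.23e-05). Max had 1 kept probe set, so no second reading was available. Cryl1, noted after its values were seen, fell by 2.20 on its brightest probe set, but none of its other 3 passed, so the rule passed it over. In wild-type cells Max fell by 1.79. Of 12 genes of the Myc and Max network 4 fell and 1 rose, beside 14.9% and 13.4% of all genes. Mnt fell by 0.30 and Mxd1 by 0.39. Other genes with 1 kept probe set were Nlrp9b, which fell by 1.41, and Cux2, a homeobox gene, which rose from 7.43, 7.25 and 7.36 to 8.92, 8.80 and 9.18. Btla and Pglyrp1, both known from immune cells, rose by 1.80 and 2.03.

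**Figure D4:**
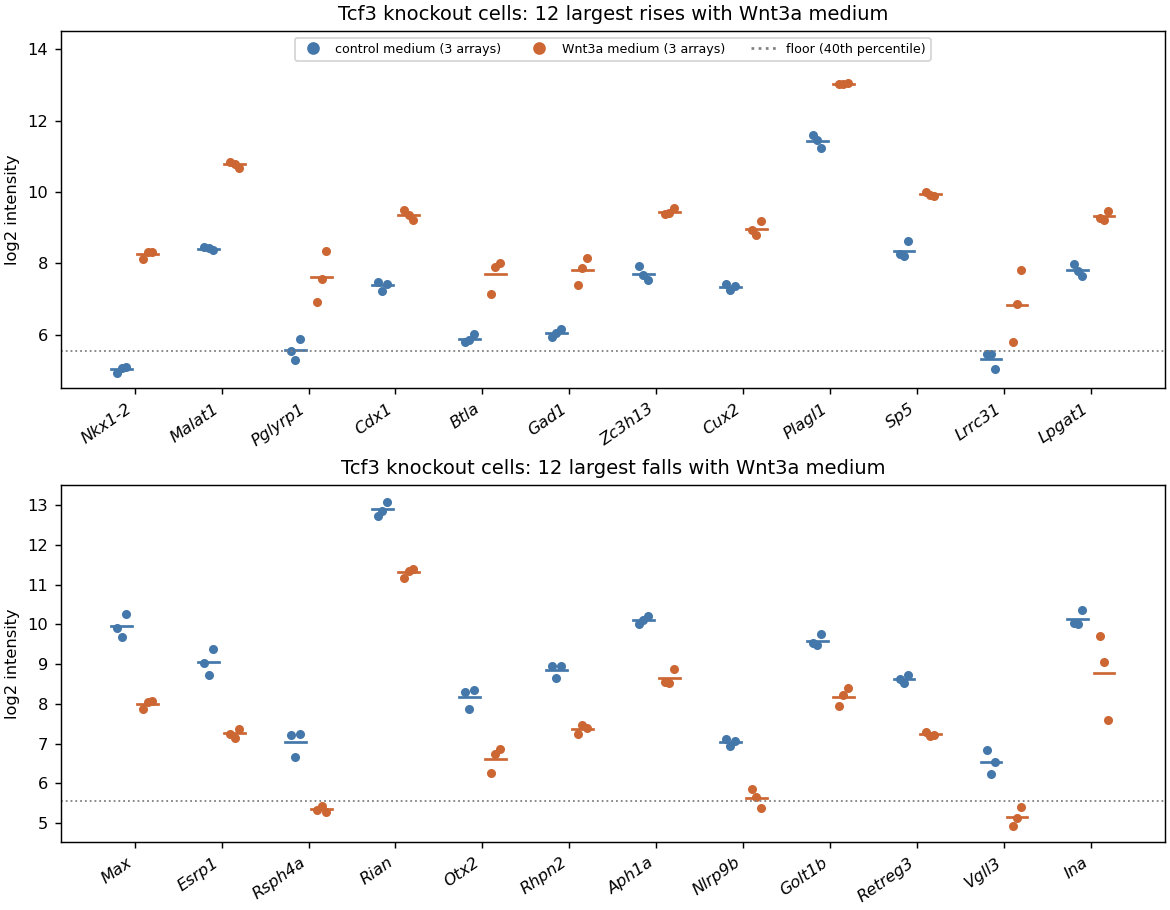
Log2 intensity (vertical axis) on the 3 control (blue) and 3 Wnt3a (orange) arrays of knockout cells for the 12 largest rises (top) and 12 largest falls (bottom) among genes with a single kept probe set or a second probe set called the same way (RIKEN and predicted names passed over); bars are group means and the dotted line is the floor. The 2 groups are apart for each gene, by a mean of 3.22 for Nkx1-2 and −1.96 for Max, while the Wnt3a dots of Ina are spread from 7.60 to 9.70.

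For some genes all probe sets moved together. Lpgat1, an acyltransferase, rose on 4 of 4, by 0.32 to 1.51, and on the brightest it read 7.99, 7.79 and 7.65 against 9.26, 9.22 and 9.48. Lpar4, a lysophosphatidic acid receptor, fell on 3 of 3, from 8.78, 8.45 and 8.58 to 7.12, 7.54 and 7.49. Qser1 fell on 3 of 3, by 0.99 on the brightest, and the type II topoisomerase gene Top2b rose on 3 of 3, by 0.48. Golt1b and Retreg3, both of internal membranes, fell on both of their probe sets, by 1.41 and 1.39 on the brightest. Ina, a neuronal intermediate filament gene, fell on 3 of 3, but the call of its brightest was lost without knockout control array 3 (adjusted p = 0.0753).

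Probe sets that agreed in sign could differ in size, as in Chd4, and other genes had probe sets of opposite sign. The chromatin remodeller gene Chd4 rose by 0.23 on its brightest probe set and by 1.304 and 1.40 on the others. Smc6, of the Smc5/6 complex, gave −0.03 on its brightest probe set, and the others ranged from a rise of 1.77 to a fall of 0.82. Ankrd11, a chromatin cofactor, gave −0.14 on the brightest of 7, while others rose by 0.98 and 1.98 and 1 fell by 0.29. Kif5b, a kinesin, gave 0.05 on its brightest, with a rise of 1.68 on one of the dim ones and a fall of 0.55 on another.

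Malat1, an abundant nuclear long non-coding RNA, had called probe sets in both directions, with far larger rises than falls. It rose on 3 probe sets, by 2.36, 2.69 and 3.08, and fell on 2, by 0.34 and 0.27. On the brightest it read 8.45, 8.43 and 8.37 against 10.85, 10.79 and 10.68. Rian, an imprinted long non-coding RNA, fell from 12.74, 12.85 and 13.09 to 11.16, 11.35 and 11.40 on its brightest probe set and rose by 0.46 on another. Plagl1, an imprinted zinc finger gene, rose by 1.61 and 1.76 on 2 of 3 and gave 0.09 on the third. The probe sets of Malat1, Smc6 and Kif5b split the same way in wild-type cells. Of 1035 called probe sets in the 423 genes called both ways, 71.5% were called in the same direction in wild-type cells, and of 2361 in genes called one way, 71.2%.

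**Figure D5:**
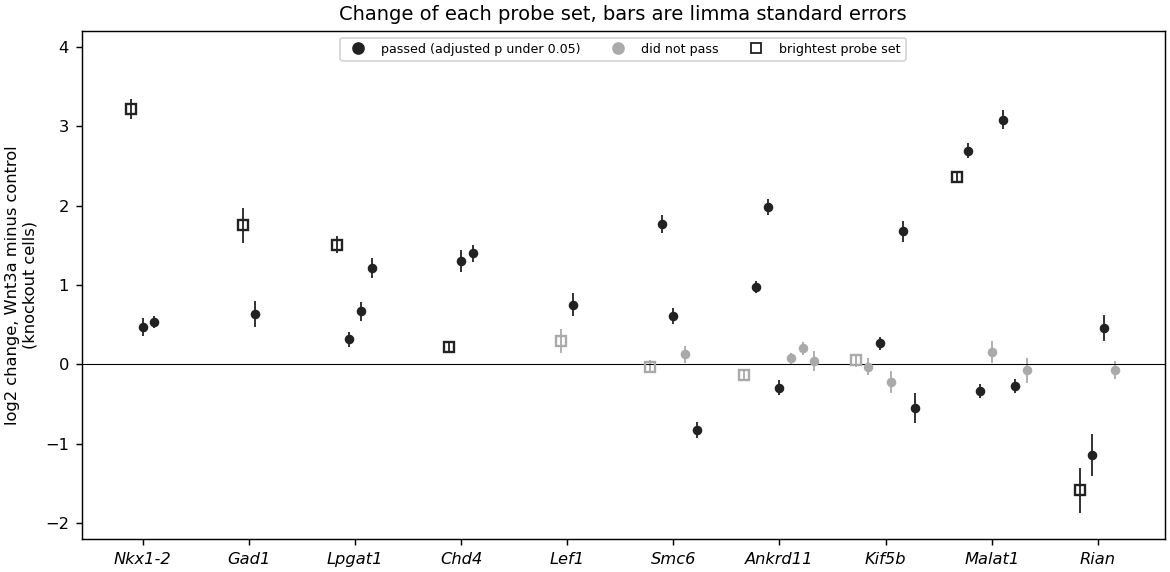
Log2 change with Wnt3a in knockout cells (vertical axis) for each kept probe set of 10 genes, brightest first, with limma standard errors as bars; black marks passed the test, grey did not, and open squares are the brightest probe sets. The Lpgat1 marks all lie above 0, from 0.32 to 1.51, while those of Malat1 run from −0.34 to 3.08.

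Set beside wild type as a whole, 2489 of the 3902 genes called in the knockout, 63.8%, were called the same way in wild-type cells, and 74 were called the opposite way. Of the 5674 genes called in wild type (41.1% of those tested), 43.9% were called the same way in the knockout. The changes correlated at 0.64 over genes, which share medium and array preparation in both genotypes and are not independent. The difference between the responses passed for 506 genes (3.66%), 277 with the knockout value higher (2.01%) and 229 with it lower (1.66%). Over all probe sets it passed for 3.58%, and the wild-type change for 42.5%. Of these, 295 were called in wild type alone and 86 in the knockout alone. Without 1 array at a time they ranged from 54 higher and 70 lower, without wild-type control array 3, to 507 higher without wild-type Wnt3a array 1 and 375 lower without wild-type control array 2.

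Rsph4a, a radial spoke gene of cilia, was called in the knockout alone, from 7.20, 6.66 and 7.23 to 5.33, 5.42 and 5.29. That is at least 2.78-fold lower. In wild-type cells both means lay below the floor, so no change can be given there, and the size of the difference (−1.73) is not defined. Gsta3, a glutathione transferase, read 10.20, 9.76 and 9.99 against 10.07, 9.85 and 9.49 and did not pass (−0.18, adjusted p = 0.549), while it rose by 2.05 in wild-type cells. Ntn1, a guidance cue, gave 0.18 against a rise of 2.06. Ccnd2, a G1 cyclin and Wnt target in other tissues, fell on 4 of 6 probe sets in the knockout and rose on all 6 in wild-type cells, and the brightest gave −0.44 (adjusted p = 0.0735) against 1.40. Porcn, the enzyme that adds the lipid to Wnt ligands, gave 0.17 (adjusted p = 0.181) against a rise of 1.55.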

How the data were processed

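The authors deposited 1 table of intensities on a linear scale for 45101 probe sets and 12 arrays. Per the submitters' processing notes the authors used RMA, whose version and settings are not stated there. No detection calls or scan dates were used. Here log2 of the deposited intensities was taken, with no pseudocount. Symbols came from the array's annotation table (34945 with 1 symbol, 932 with several, 9160 unlisted and unnamed here, 64 controls), and 18032 of 18194 Entrez identifiers were found in RefSeq GRCm38.p6.

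A probe set was kept if at least 3 of 12 arrays exceeded the 40th percentile, which left 28483. Means of the 4 groups, over all 12 arrays, were modelled by lmFit and eBayes (limma 3.58.1, R 4.3.3), with Benjamini-Hochberg adjustment across the 28483 and a threshold of 0.05. Every adjusted p is limma's, and ± is its standard error (median 0.093). A gene is its brightest kept probe set with 1 symbol. On simulated data over 28483 probe sets the fit recovered 74% of 50 true 1.5-fold changes, 92% at 2-fold and 98% at 3-fold. The simulation changed only 50 probe sets per fold, with independent noise and no shift shared by the arrays of a medium. In the data 30.9% of probe sets were called, so these shares do not give the recovery there. With 3 arrays in each group, precision is limited by their number.

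The members and the 36 gene lists were chosen with earlier results of these data known; 80 of 933 list symbols were not matched. Lists are described by counts and medians, with no set test. Named genes are the 12 largest rises and falls whose arrays do not overlap and which, if read by several probe sets, had another called the same way (RIKEN and predicted names passed over); 8 genes with all of 3 or more probe sets called one way; 6 with the widest opposed calls; the 8 largest interactions; from each list the 4 largest called members and the 2 largest others; and a fixed set of Wnt and pluripotency genes, not all of which are printed. List members outside this rule that are named were picked after their values were seen. Alternatives covered the filter, normalization, arrays in the fit, replicate block, prior, probe set choice and leaving out each array.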

Additional observations from a re-analysis of the deposited data

Results flagged for a closer look

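The Wnt3a change was smaller or lower in knockout than in wild-type cells, by a test of the difference itself, for a set of naive and related genes. The knockout change minus the wild-type change was −0.74 for Nanog, −1.20 for Esrrb, −0.92 for Klf2, −1.15 for Klf4, −1.60 for Tfcp2l1, −0.99 for Nr5a2, −1.64 for Tbx3 and −1.61 for Prdm14. It was −0.75 for Zfp57, −1.11 for Dppa3 and −0.84 for Rex2. Outside that list it was −1.73 for Rsph4a, −2.23 for Gsta3, −2.04 for Myo1f, −1.88 for Ntn1, −1.84 for Ccnd2 and −1.37 for Porcn, and it was −0.56 for Sesn2, −0.77 for Ebp and −0.95 for Oas1a.

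The fitted knockout value was the higher one for Nkx1-2 (0.79), Wnt9a (1.17), St6gal2 (1.63), Sall2 (1.10), Fosl1 (0.55), Zyx (1.41) and Csrp1 (1.34). Several of these sizes are not defined, because a group mean lay below the floor. For Nkx1-2 this holds for the control medium of both genotypes, so its 0.79 sets one bound against another and fixes no direction. It also holds for Wnt9a in knockout control medium, for Fosl1 in knockout Wnt3a medium, and for Rsph4a in knockout Wnt3a medium and both wild-type groups. St6gal2 lay below the floor on all 6 knockout arrays, so its knockout change of −0.18 is between values that have no order, and its wild-type Wnt3a mean lay below the floor too. The calls of Nkx1-2, Myo1f, Wnt9a, Zfp57, Dppa3, Rex2, Sall2, Fosl1, Csrp1 and Oas1a were lost under some alternatives, and those of the other 17 genes named here under none that was run.

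The control sequences added to the samples are outside the measurement of cell RNA, and 8 of them were brighter on the knockout Wnt3a arrays than on the knockout control arrays. The log2 differences were 6.61 for dap, 2.56 for lys, 2.82 for phe and 4.01 for thr among the sequences added before labelling. The control-medium means of dap, lys, phe and thr (4.27, 4.61, 4.91 and 4.93) lay below the floor, so the sizes of these differences are not defined. Among the sequences added at hybridisation the differences were 2.50 for bioB, 2.47 for bioC, 2.43 for bioD and 1.89 for cre. Their part in the gene results was not tested.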

How the results depend on the processing

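Of 4939 repeats of named knockout changes under the alternatives, 4576 kept their side of the threshold and did not reverse. A reversal is a change of sign where either fit passed. Changes of sign where neither fit passed were not counted as reversals. With median centring 1365 genes were called lower in knockout cells and 277 genes had 2 or more probe sets all lower. With an intensity trend in the prior the interaction had 861 probe sets and 381 genes lower. Without 1 array at a time, knockout calls ranged from 2824 to 4358 probe sets higher and 3058 to 4796 lower, and from 1164 to 1902 genes higher and 1304 to 2145 lower. Interaction calls ranged from 87 to 858 probe sets higher and 155 to 833 lower, and from 54 to 507 genes higher and 70 to 375 lower. Genes with agreeing probe sets ranged from 341 to 612 (all higher) and 286 to 505 (all lower), and genes called both ways from 210 to 443. The replicate numbers did not pair the arrays: same-number correlations of deviations were −0.20, −0.02 and −0.23 in knockout cells. With the replicate block 1676 genes were higher and 1912 lower.

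Reversals came only from the mean of all probe sets of a gene or from plain probe sets alone (identifiers without _a, _s or _x), both of which change which probe sets are read. In knockout cells plain probe sets gave −0.34 for Malat1, 0.11 for Aph1a, −0.26 for Itsn2, 0.11 for Fbxw11, −0.18 for Klf6 and −0.27 for Myh9. The mean of all probe sets gave 0.33 for Smc6, 0.41 for Ankrd11, 0.21 for Zfp292, −0.15 for Csnk1e, 0.013 for Fbxw11 and −0.07 for Myh9. In wild-type cells plain probe sets gave −0.68 for Malat1, −0.12 for Plagl1, −0.45 for Lpgat1, 0.15 for Aph1a, −0.27 for Itsn2, 0.19 for Fbxw11, −0.82 for Klf6 and 0.43 for Cald1, and the mean gave 0.43 for Smc6, 0.60 for Zfp292, 0.24 for Ctnnb1, 0.067 for Tle4, −0.39 for Klf6, −0.11 for Myh9, 0.034 for Cdkn1b, −0.16 for Higd1a and −0.063 for Ndufs4. For genes with a group mean under the floor of 5.56, a fold is a lower bound only.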

Other observations

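Genes of the mitochondrial respiratory chain rose more often than they fell in knockout cells, 14 against 2 of 48 tested, beside 13.4% of all genes higher and 14.9% lower, with a median change of 0.07. Without knockout Wnt3a array 3, 9 rose and 3 fell, and under the other settings 8 to 18 rose. The changes were small. None of the 14 genes that rose had a second probe set called higher. In 3 genes of this list the called probe sets pointed both ways. Ndufb10, a complex I subunit, went from 11.42, 11.39 and 11.43 to 11.98, 11.91 and 12.01 (0.56 ± 0.075, limma adjusted p = 0.000286), and Sdha of complex II rose by 0.24. Ndufs4 rose by 0.42 on its brightest probe set, but 1 of its 4 probe sets fell. Of 37 cytosolic ribosomal protein genes 1 rose and none fell by limma, beside 13.4% and 14.9% of all genes. At an unadjusted p under 0.05, 3 were higher and 1 lower, beside 11929 of all 28483 probe sets in either direction. In the cell cycle list 13 of 51 genes rose and 7 fell, beside 13.4% and 14.9% of all genes. Cdkn1a, the p21 inhibitor, rose on both probe sets from 9.49, 9.52 and 9.55 to 10.10, 10.14 and 10.51, while Cdkn1b, the p27 inhibitor, fell by 0.97 on 1 of 2. E2f4, a repressor of cell cycle genes, fell by 0.88.

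Of 24 imprinted genes 5 rose and 6 fell, beside 13.4% and 14.9% of all genes. Igf2r, the receptor that clears Igf2, went from 7.96, 7.85 and 7.88 to 8.77, 8.83 and 8.77 (0.89 ± 0.07, adjusted p = 5.38e-06) with both probe sets higher, and Grb10, an adaptor that restrains growth signalling, rose by 0.72 on its brightest probe set, with all 3 higher. Peg3 fell by 0.48 on its brightest probe set, with another of its 3 higher, and Mest fell by 0.37 with overlapping arrays. Of 17 tested neural genes 4 fell and 2 rose, and without knockout control array 1 the falls were 2, beside 14.9% and 13.4% of all genes. Neurod1, a neuronal bHLH factor, fell on both probe sets, from 8.60, 8.54 and 8.86 to 7.35, 7.80 and 8.003, and the microtubule gene Map2 fell by 0.96 to below the floor (at least 1.25-fold). Pax6 read 7.70, 7.53 and 8.12 against 7.42, 6.90 and 5.70, and 1 of its 4 probe sets passed. That call was lost without knockout Wnt3a array 3 (adjusted p = 0.0772), knockout control array 1 (0.062) or knockout control array 3 (0.112), and with only the knockout arrays in the fit (0.0668). In the Nodal and Activin pathway 5 of 21 genes fell and 3 rose, beside 14.9% and 13.4% of all genes. The inhibitor gene Lefty1 fell by 1.04, the cofactor gene Foxh1 by 0.51 on its brightest of 3 probe sets, all of them lower, and Skil by 0.53, with both of its probe sets lower.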
